A study of Homo sapiens with 9 samples.

Results

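The nuclear-encoded respiratory chain genes are the protein-coding genes of both gene tables whose symbol starts with NDUF, SDHA, SDHB, SDHC, SDHD, UQCR, COX4, COX5, COX6, COX7, COX8 or ATP5. The rule found 101 genes among 32449 genes listed in either table. They hold 37 subunits of complex I, 4 of complex II, 9 of complex III, 17 of complex IV and 19 of complex V, with paralogues counted under the complex they belong to. A further 12 are assembly factors, and 3 are other genes caught by the name: ATP5S, which encodes coupling factor B, and the read-through genes ATP5MF-PTCD1 and NDUFC2-KCTD14. The RNA came from 9 libraries, 3 per group, of HCT-116, a long-used line of human colon carcinoma cells. NC cells carried the blank vector. ORF cells stably expressed the reading frame of LINC00266-1, and a peptide is made from that frame. By its label, the third group, MT, expressed the construct 5'UTR-ORFmut, in which ATT replaces the ATG start codon; its members are called the libraries labelled MT. No source used here says whether a group is 1 clone or several, or whether replicates were grown apart. The p-values therefore cover the spread between these libraries alone, and that spread may be technical.

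The respiratory chain sits in the inner mitochondrial membrane. Complexes I and II feed electrons from NADH and succinate to ubiquinone, complex III passes them to cytochrome c, and complex IV passes them to oxygen. The proton gradient built by complexes I, III and IV drives ATP synthesis by complex V. The mitochondrial genome encodes a small set of core subunits, and all other subunits come from nuclear genes and are imported. Many of those genes carry promoter sites for the transcription factors NRF1, YY1 and the ETS protein GABP.

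Recovered reads per library ran from 19460596 to 24370517, and the members took 1.07% to 1.22% of them. The construct gene LINC00266-1 had 9951 to 10310 reads in each ORF library, 1 read over all NC libraries and 1 read over all libraries labelled MT, which goes against the label of the latter. PKM, the pyruvate kinase of glycolysis, took 3.67% to 5.54% of reads in ORF and 0.262% to 0.342% elsewhere, so that any difference of ORF goes with both genes, and their parts cannot be told apart. The epithelial keratin gene KRT8 was above 2571 CPM (reads scaled to library size) in every library. VIL1 and LGALS4, also colon epithelial markers, had at most 7 reads in any library, and CDX2 had 335 to 631. Markers of fibroblasts and blood cells had at most 16 reads in any library. Among muscle markers, whose tissue uses some of the paralogues below, the highest was MYL2 with 36 to 54 reads.

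ATP5F1B, the catalytic beta subunit of ATP synthase, was the member with the highest level. It had 28391, 28552 and 23328 normalized reads in NC, 37301, 26461 and 29174 in ORF, and 27938, 34168 and 25171 in those labelled MT. Per kb of the gene length given in the deposited tables, its mean level was 573 CPM in NC, 579 in ORF and 587 in those labelled MT. Next came the small complex I subunit NDUFS5, at 376 ± 24.0, 369 ± 17.3 and 373 ± 4.13 CPM per kb in the same order, and the complex IV subunit COX8A, at 313 ± 29.4, 322 ± 62.7 and 357 ± 76.4 (SD, n = 3). The groups overlap for each of these 3 members.

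Levels within a complex spread widely. In complex I, NDUFB7 and NDUFB10, accessory subunits of the membrane arm, followed NDUFS5 with means of 170 and 145 CPM per kb over all 9 libraries, and the lowest was NDUFA7 at 0.782. In complex II, the iron-sulphur subunit SDHB stood at 50.9, the catalytic flavoprotein SDHA at 24.9, and the membrane anchors SDHD and SDHC at 19.8 and 9.76. In complex III, the hinge protein UQCRH stood at 184, UQCRQ at 136 and the core protein UQCRC1 at 109. In complex IV, COX6B1 (177) and COX7C (163) followed COX8A. In complex V, ATP5MD (147), an accessory subunit, and ATP5F1D (83.7), the delta subunit, followed ATP5F1B. Among assembly factors NDUFAF8 was highest at 75.9, before NDUFAF2 at 30.9 and NDUFAF3 at 28.8, and NDUFAF5 was lowest at 2.13. Median levels per kb were 27.2 for complex I, 22.4 for II, 43.4 for III, 41.3 for IV, 45.3 for V and 8.27 for assembly factors, over the members tested in at least 1 comparison. The order depends on the length used: with the length of the principal transcript, 58 of 101 members had a level over 1.5 times higher, and COX4I1 moved from 110 to 603 CPM per kb.

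**Figure D1:**
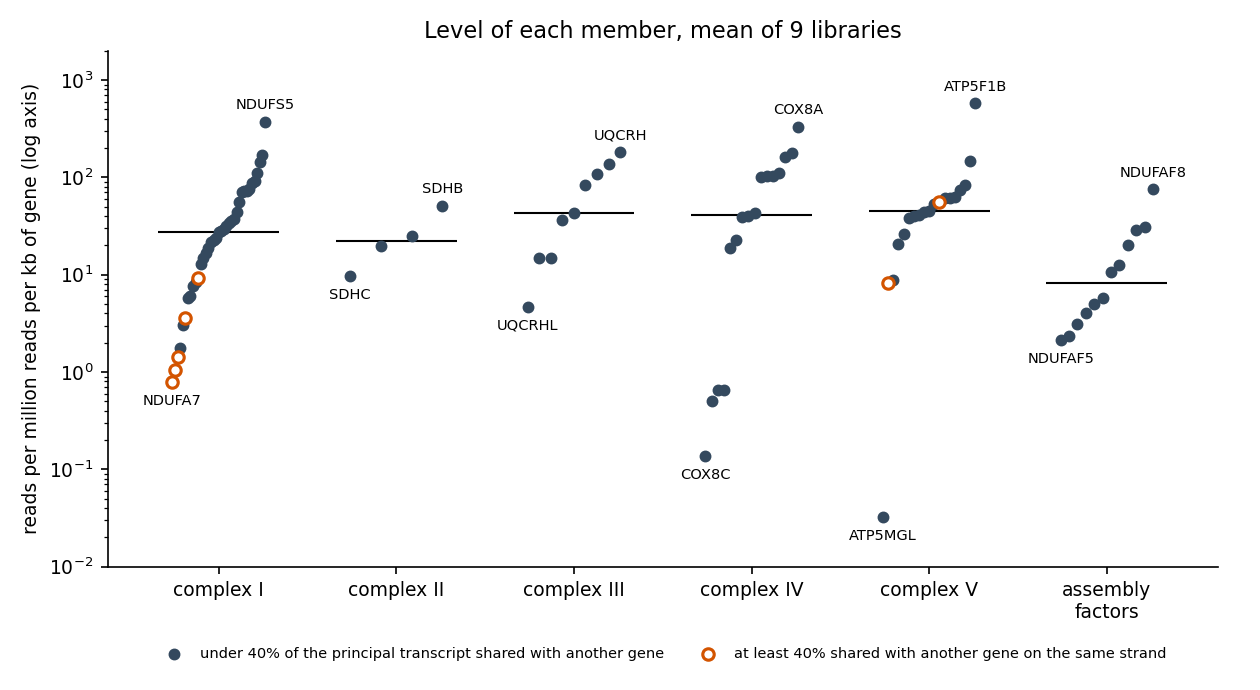
Mean level of each member over 9 libraries, in CPM per kb of gene (log axis), by complex. Each point is 1 member tested in at least 1 comparison, black bars are medians (8.27 to 45.3), and open points mark members that share at least 40% of their principal transcript with another gene on the same strand. The highest member is ATP5F1B at 580 and the lowest shown is ATP5MGL at 0.0324.

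Paralogues with restricted tissue use were low beside their common counterparts in all groups. COX4I1, the common form of the regulatory subunit IV of cytochrome c oxidase, had 105 ± 5.49 CPM per kb in NC (SD, n = 3), while COX4I2, its counterpart best known from lung, had at most 2 reads in any library. COX6B1 had 173 ± 12.2 CPM per kb in NC and COX6B2, its testis form, 0.710 ± 0.114. COX7A2 had 103 ± 3.65 and COX7A1, its heart and muscle form, 0.783 ± 0.257. COX7A2L, which takes part in joining complexes III and IV, lay between them at 18.8 ± 0.450. COX8A had 313 ± 29.4 and COX8C, the testis form, had 0 to 4 reads per library. COX6A1 and COX7B were at 40.9 ± 2.85 and 23.5 ± 0.817, and their counterparts COX6A2 and COX7B2 were not analysed here. NDUFA4, a complex IV subunit despite its name, had 41.0 ± 2.11 and NDUFA4L2, a hypoxia-responsive relative, 0.508 ± 0.0492. The genes ATP5MC1, ATP5MC2 and ATP5MC3 encode the same mature c subunit of ATP synthase, and their levels were 58.8 ± 5.24, 39.8 ± 2.73 and 42.9 ± 2.08. With the principal transcript length their means over all libraries were further apart, at 262, 81.7 and 56.0 CPM per kb. UQCRHL, a near copy of UQCRH, had 4.80 ± 0.443 against 194 ± 3.63. Reads may be divided between such copies in a way the tables do not show. Reads of 68 pseudogenes named for the members added 0.227% to 0.404% of the members' own reads.

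Several members had far fewer reads in the gene tables than in the splicing tables of the same libraries. NDUFA13, an accessory subunit of complex I, had 260 reads over the NC libraries in the gene table, while its largest splicing event alone had 13493. NDUFA7 had 70 and 5390, NDUFV2, the core subunit next to the NADH site, 225 and 3152, NDUFA11 1098 and 12134, NDUFB8 1133 and 9467, and ATP5PO, the stalk subunit known as OSCP, 1855 and 7442. In GENCODE 29 at least 40% of the principal transcript of each of these 6 members lies in another gene on the same strand, for example 82.9% for NDUFV2 and 75.9% for NDUFA7. AC010323.1, the gene that overlaps NDUFA7, had 13 reads over all 9 libraries, and AL133352.1, which overlaps NDUFB8, had 11. All 9 members with such an overlap and a listed event had more reads in the event than in the gene table, with a median of 14.0 event reads per gene read. They include the read-through genes ATP5MF-PTCD1, with 5 gene reads and 1233 event reads, and NDUFC2-KCTD14, with 2 and 2854. Both share 100%, and their event reads may be those of ATP5MF and NDUFC2. Of 76 members with less overlap, 34 had more event reads than gene reads, and the median over the 76 was 0.987. UQCR11, with 2075 gene reads and 18267 event reads, and ATP5MG, with 1963 and 10179, had high ratios although they share 17.7% and 17.6%. The 40% limit was chosen after these values were seen, and the part of overlap in the low gene counts was not tested. The gene-table levels of these members, including the lowest of complex I, are therefore not levels of all their transcripts.

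**Figure D2:**
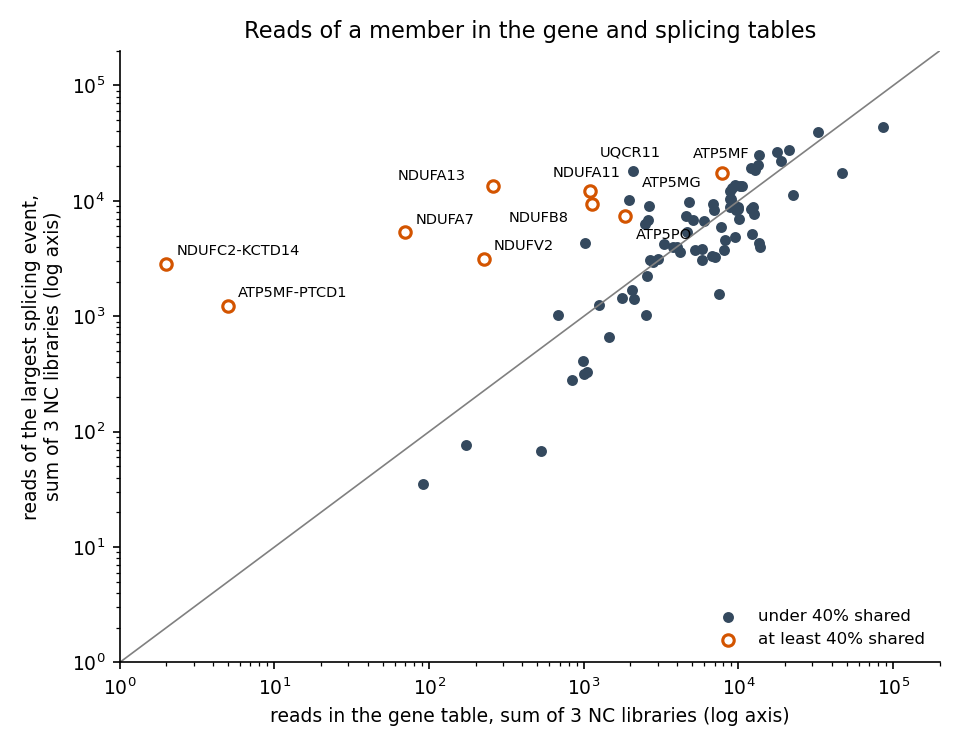
Reads of the largest splicing event of each member against its reads in the gene table, both summed over the 3 NC libraries (log axes); each point is a member with a listed event and the line marks equal reads. The 9 open points, members that share at least 40% of their principal transcript, all lie above the line. They include the read-through genes ATP5MF-PTCD1 and NDUFC2-KCTD14.

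The comparison of ORF with NC asks what differs when the reading frame is expressed. No member passed the test: limma called 0 of 99 members tested at a Benjamini-Hochberg adjusted p below 0.05 over all genes, against 0.418% of all 24662 genes. The smallest adjusted p among members was 0.190, and 8 members (8.08%) had an unadjusted p under 0.05, a lower share than the 15.7% of all genes. edgeR and DESeq2 on recovered reads also called 0 members, and in the authors' deposited table no member of 101 was below 0.05, where 1.80% of genes were. COX4I2 and NDUFC2-KCTD14 had too few reads to be tested. Estimates nonetheless lay mostly above 0: 78 members were above and 19 below on 2 decimals, with a median log2 fold change of 0.15, against 46.2% above and a median of -0.04 over all genes. With quantile normalization the members' median was 0.06, and without ORF replicate 1 it was 0.05. In bulk libraries a change in RNA per cell and a change in the make-up of the cells cannot be told apart. For 68 of 99 members the 95% interval lay within a 1.5-fold difference in either direction, and the median standard error was 0.15 on the log2 scale.

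By complex, the median log2 fold change in ORF against NC was 0.16 for complex I, -0.01 for II, 0.09 for III, 0.14 for IV, 0.15 for V and 0.15 for assembly factors. Within complex I, 27 of 30 accessory subunits and 5 of 7 core subunits were above 0. Complex II was the flattest: the log2 fold changes were -0.00 ± 0.14 for SDHA, 0.16 ± 0.13 for SDHB, -0.03 ± 0.13 for SDHC and -0.02 ± 0.13 for SDHD (SE, n = 3 per group). Summed normalized reads of all members were 232357 ± 19297 for NC, 258478 ± 36526 for ORF and 250581 ± 32614 for those labelled MT (SD, n = 3), on 1 scale over the 9 libraries. In CPM the order of NC and ORF was the reverse: 11561 ± 468 for NC, 11240 ± 695 for ORF and 11762 ± 398 for those labelled MT. For complex II alone the CPM were 547 ± 7.80, 492 ± 23.7 and 546 ± 8.79. The direction of ORF against NC in the sum of all members thus rests on the scaling. PKM reads lower the share of every other gene in ORF, and their part in the reversal was not tested. The ranges of the normalized sums overlap: NC ran from 210398 to 246608, ORF from 232180 to 300184 and the libraries labelled MT from 228727 to 288068.

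NDUFB9 and NDUFB2, accessory subunits of the complex I membrane arm, had the highest log2 fold changes in ORF against NC after COX8C, which had at most 4 reads per library. NDUFB9 had 4419, 4402 and 3793 normalized reads in NC, 7521, 4816 and 5818 in ORF, and 4297, 5592 and 4184 in those labelled MT. Every ORF library was above every NC library, ORF replicate 1 was highest, and MT replicate 2 reached into the ORF range. ORF exceeded NC by 0.50 ± 0.16 on the log2 scale (n = 3 per group, SE; limma adjusted p = 0.190). NDUFB2 (ENSG00000090266, GRCh38 chromosome 7, 140690777 to 140722790) had 1580, 1585 and 1276 normalized reads in NC, 1700 to 2548 in ORF and 1544 to 2324 in those labelled MT. Its log2 fold change was 0.50 ± 0.16 (limma adjusted p = 0.191), and every ORF library was above every NC library. In the authors' deposited table these members had the smallest adjusted p of all members, 0.0694 and 0.0839. Without ORF replicate 2 both passed limma, with log2 fold changes of 0.65 and 0.64 and adjusted p of 0.0259 and 0.0286; with COX6B2 3.06% of members passed then, against 6.42% of all genes. Exons on the opposite strand cover 21.0% of the exon bases of NDUFB9 and 35.1% of those of NDUFB2, and with no strand setting stated for the counting, reads of both strands cannot be told apart.

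Smaller differences had little overlap between libraries. ATP5MD had 2766, 2854 and 2543 normalized reads in NC, 3545, 3372 and 3132 in ORF, and 2585, 2662 and 2775 in those labelled MT. All ORF libraries lay above all libraries of both other groups, and the log2 fold change against NC was 0.30 ± 0.12 (n = 3 per group, SE; limma adjusted p = 0.273). NDUFAF5, a complex I assembly factor that hydroxylates the core subunit NDUFS7, had 292, 289 and 347 in NC, 384, 384 and 401 in ORF, and 286, 277 and 291 in those labelled MT. Again the ORF libraries lay above both other groups, with a log2 fold change against NC of 0.33 ± 0.14 (limma adjusted p = 0.293). The same held for NDUFB8, NDUFAF4, NDUFAF1, ATP5PF, COX7B, NDUFA12, NDUFB3 and NDUFB5, named after their values were seen. All ORF libraries lay above all NC libraries in 11.5% of all genes, and above all libraries labelled MT in 9.88%. The share of all genes above both groups is not given here. After adjustment for GC content and gene length NDUFB2, ATP5MD, NDUFAF5 and NDUFAF4 passed limma, with log2 fold changes of 0.46, 0.44, 0.52 and 0.47 and adjusted p of 0.0395, 0.0400, 0.0256 and 0.0390. These are 4.04% of members, and 7.19% of all genes passed with that adjustment.

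In all, 16 of 99 members had every ORF library above every NC library, where 11.5% of all genes did, and 1 had every ORF library below, where 10.1% of all genes did. That member was COX6B2 (ENSG00000160471, chromosome 19, 55349306 to 55354814). It had 54, 54 and 66 reads in NC, 26, 44 and 15 in ORF, and 77, 88 and 66 in those labelled MT. Its ORF to NC log2 fold change came to -0.88 ± 0.34 (n = 3 per group, SE; limma adjusted p = 0.259) and without ORF replicate 2 it was -1.23 (adjusted p = 0.0361). The gap is narrow, since the highest ORF library had 46.3 and the lowest NC library 46.4 normalized reads in the deposited table, and on the scale of all 9 libraries they were 47.7 and 47.6. The other low estimates were -0.47 ± 0.29 for NDUFV2 and -0.42 ± 0.36 for COX7A1, both with few reads and overlapping groups. The gene-table reads of NDUFV2 do not cover all its transcripts.

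**Figure D3:**
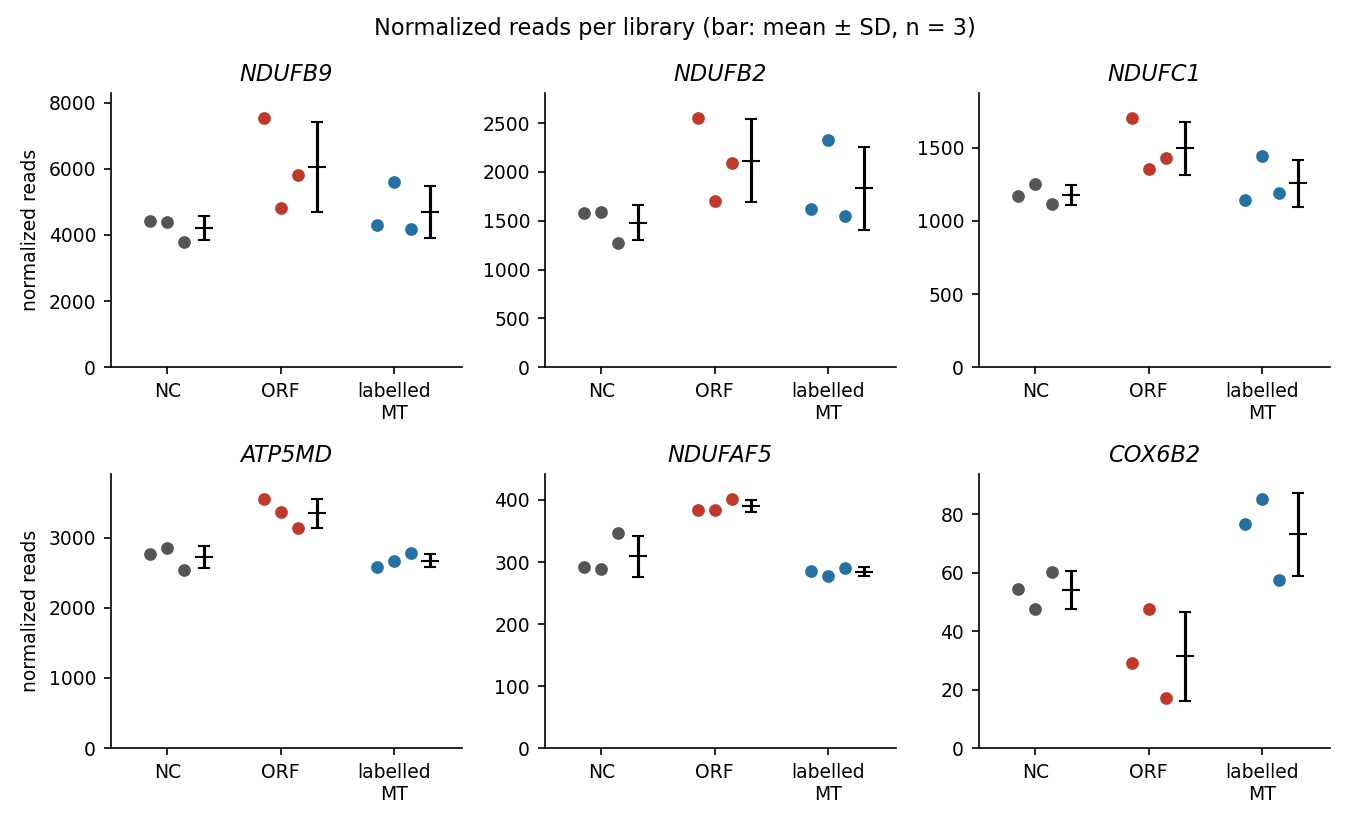
Normalized reads of 6 members in each library of NC, ORF and the libraries labelled MT, with mean ± SD (n = 3) beside each group; each vertical axis starts at 0. For ATP5MD and NDUFAF5 all ORF points lie above those of both other groups, and for NDUFB9 and NDUFB2 MT replicate 2 reaches the ORF range. NDUFC1, an accessory complex I subunit shown after its values were seen, had 1358 to 1701 in ORF and 1117 to 1249 in NC.

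In the libraries labelled MT against NC, limma called 0 of 98 members (limma adjusted p of at least 0.744) and 0% of 25310 genes, with 1 member and 1183 genes at an unadjusted p under 0.05. edgeR called 0 members, as did DESeq2. By the authors' deposited table no member had an adjusted p below 0.05, and 0.00322% of genes did. The members' median log2 fold change was 0.08, against 0.01 over all genes. It was 0.01 without NC replicate 3 and -0.00 without MT replicate 2, where all genes stood at 0.02 and 0.00. With all libraries, for 79 of 98 members the 95% interval lay within a 1.5-fold difference. Of the members 1, NDUFV3, an accessory subunit of complex I, had all libraries labelled MT above all NC libraries, against 5.70% of all genes. Another 5 had them below, against 6.72% of all genes. These 5, named after their values were seen, were the assembly factor NDUFAF6, with a log2 fold change of -0.22, the membrane anchor SDHD (-0.18), the core complex I subunit NDUFS1 (-0.16), the peripheral stalk subunit ATP5PB (-0.12) and UQCRB of complex III (-0.06).

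The highest estimate with more than a few reads in this comparison was that of NDUFS7, a core subunit of complex I that carries an iron-sulphur cluster. It had 849, 881 and 593 normalized reads in NC, 1251, 726 and 1007 in ORF, and 1013, 1422 and 795 in those labelled MT. The 3 groups overlap, MT replicate 2 was highest, and the log2 fold change against NC was 0.46 ± 0.19 (n = 3 per group, SE; limma adjusted p = 0.744). Opposite-strand exons cover 49.1% of its exon bases. With replicate numbers as a block in the fit, 35 of 25310 genes passed limma, NDUFS7 among them (adjusted p = 0.0181). It is not known whether these numbers pair the libraries. Deviations from the group mean in same-numbered libraries of NC and those labelled MT correlated at 0.000774, 0.0822 and 0.0977 over 26546 genes. COX8C (0.64 ± 0.74) and ATP5MF-PTCD1 (0.54 ± 0.65) had higher estimates from at most 4 reads per library. The lowest estimates were -0.37 ± 0.26 for NDUFV2, -0.31 ± 0.44 for COX7A1 and -0.27 ± 0.15 for SDHAF3, an assembly factor that protects SDHB during maturation. That of NDUFV2 rests on 39 to 95 gene-table reads per library, which do not cover all its transcripts.

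ORF and the libraries labelled MT were compared on recovered reads, since no deposited gene table holds both. Again 0 of 98 members passed limma, against 0.365% of 24404 genes, and the smallest adjusted p was 0.153. edgeR and DESeq2 also called 0 members, and 5 (5.10%) had an unadjusted p under 0.05 in limma, where 13.1% of all genes did. The median log2 fold change was 0.06, against -0.03 over all genes, but -0.04 without ORF replicate 1 and -0.01 without MT replicate 3, so that its direction rests on single libraries. In 17 members all ORF libraries lay above all libraries labelled MT, against 9.88% of genes, and in 1 they lay below, against 9.60%. That member was COX6B2, with a log2 fold change of -1.29 ± 0.35 (n = 3 per group, SE; limma adjusted p = 0.153) and 76.6, 85.1 and 57.6 normalized reads in the libraries labelled MT against 29.1, 47.7 and 17.3 in ORF. After adjustment for GC content and gene length it passed, with -1.21 and a limma adjusted p of 0.0305. It made up 1.02% of members, and 5.86% of all genes passed with that adjustment. NDUFA4L2 (-0.62 ± 0.30) and SDHAF4 (-0.41 ± 0.27) followed as lowest. The highest were NDUFA7 (0.50 ± 0.33), which rests on 15 to 34 gene-table reads per library that do not cover all its transcripts, NDUFAF5 (0.45 ± 0.15) and NDUFAF4 (0.39 ± 0.16), and assembly factors had the highest median of the groups, 0.21, with 10 of 12 above 0.

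**Figure D4:**
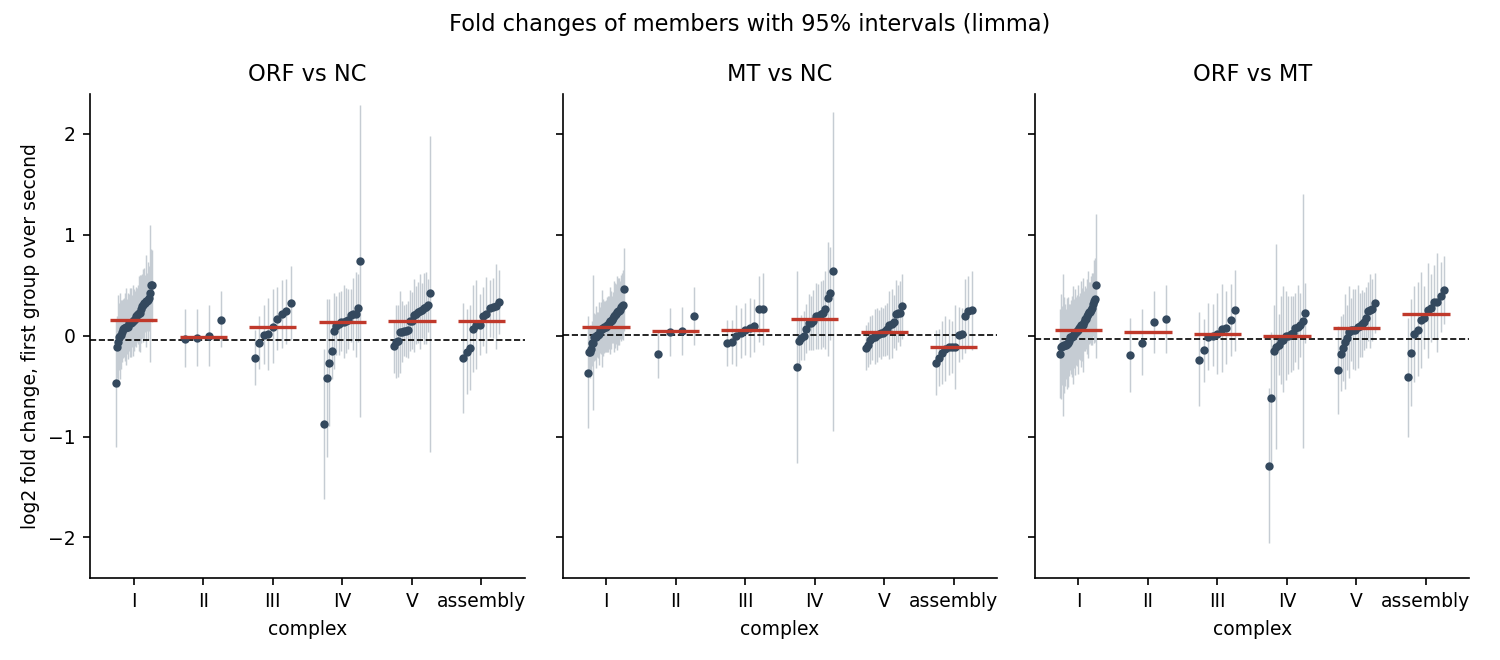
Log2 fold changes of members by complex in the 3 comparisons, with 95% intervals from limma as grey bars, the median of each complex in red and the median of all genes as a dashed line. The intervals of most members span 0, and complex medians lie between -0.11 and 0.21; MT stands for the libraries labelled MT.

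Members moved together between libraries of 1 group. In ORF replicate 1, 82 of 99 members were above their ORF mean, with a median deviation of 0.20 on the log2 scale, and in ORF replicate 2 only 23 were, with a median of -0.11. In MT replicate 2, 73 were above the group mean (median 0.16), and in NC replicate 3, 12 were (median -0.13). The median deviation over all genes lay between -0.03 and 0.02 in each library. These libraries also differed by GC content: across 26534 genes, which are not independent replicates, the correlation of the deviation with GC content was 0.347 in ORF replicate 1, 0.304 in MT replicate 2, -0.286 in ORF replicate 2 and -0.172 in NC replicate 3. Across the members it was 0.508, 0.526, -0.464 and -0.226. The members' median GC content, 48.9%, was close to that of all genes tested, 49.8%, and below the 51.1% of protein-coding genes. The part of GC content in the members' shared movement was not tested. Some abundant genes outside the members moved likewise. In CPM the citric acid cycle gene MDH2 had 472, 388 and 383 in ORF and 457, 575 and 435 in those labelled MT. POLRMT and MRPS34 were also highest in ORF replicate 1 and MT replicate 2 of their groups, while CYCS and LRPPRC were lowest there. Comparable genes were not counted, so the movement is not shown to be particular to the members.

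**Figure D5:**
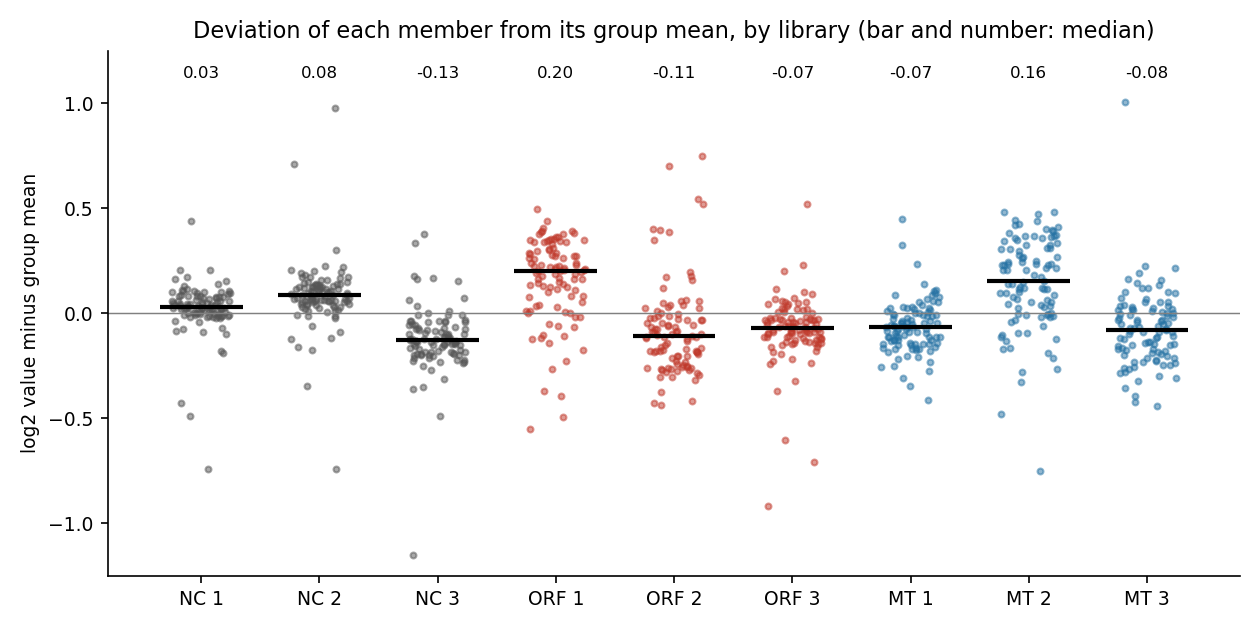
Deviation of each of 99 members from its group mean on the log2 scale, by library; black bars and numbers give the medians. ORF 1 (0.20) and MT 2 (0.16) stand highest and NC 3 (-0.13) and ORF 2 (-0.11) lowest; 1 value lies outside the axis.

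The 13 mitochondrially encoded subunits, partners of the members in complexes I, III, IV and V, took 5.26% to 5.56% of reads in NC, 4.65% to 5.57% in ORF and 5.88% to 7.08% in those labelled MT. None of the 13 passed limma in any comparison. At a limma unadjusted p under 0.05 there were 3 (23.1%) in ORF against NC, where 15.7% of all genes were. In the libraries labelled MT against NC there were 3 (23.1%), against 4.67% of all genes, and in ORF against those labelled MT 0. In the libraries labelled MT against NC all 13 were above 0, where 51.5% of all genes were. Their median log2 fold change was 0.32, and 0.11 with quantile normalization. For 8 of them all libraries labelled MT lay above all NC libraries, against 5.70% of all genes. The 13 are not independent replicates: their summed normalized reads were 1669344 in MT replicate 2, against 1221388 and 1170304 in MT replicates 1 and 3. In ORF against NC the median was 0.12, but -0.06 with quantile normalization, so that its direction rests on the scaling. MT-CO1, the catalytic subunit of complex IV and the most abundant, had 13663, 13811 and 14066 CPM in NC, 14383, 13858 and 11199 in ORF, and 15671, 18025 and 15318 in those labelled MT. In CPM the last group lay above both others. On the normalized scale of the tests, 0 of the 13 had all ORF libraries below all libraries labelled MT. For MT-CO1 the log2 fold change of the libraries labelled MT against NC was 0.32 ± 0.24 (n = 3 per group, SE, limma adjusted p = 0.744). That of ORF against the libraries labelled MT was -0.21 ± 0.24.

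Other genes of the pathway did not pass the test either. None of 7 measured electron carriers and entry points, 45 assembly factors outside the name rule, 14 regulators of mitochondrial biogenesis, 19 citric acid cycle genes and 78 mitochondrial ribosomal proteins was called by limma in any of the 3 comparisons. In ORF against NC 9 mitochondrial ribosomal protein genes and 5 outside assembly factors had an unadjusted p under 0.05, which is 11.5% and 11.1% of these lists against 15.7% of all genes. The citric acid cycle had 3 (15.8%), the regulators 1 (7.14%) and the electron carriers and entry points 0. edgeR called 0 in each list, and DESeq2 called 1 mitochondrial ribosomal protein gene in ORF against NC. The median log2 fold changes in that comparison were 0.13, 0.13, 0.04, 0.09 and 0.20 in the same order, and 0.02, -0.03, -0.11, 0.06 and 0.07 in the libraries labelled MT against NC. Mitochondrial ribosomal proteins were above 0 in ORF against NC for 70 of 78 genes. The most abundant gene of each list gave log2 fold changes in ORF against NC of 0.13 ± 0.14 for cytochrome c (CYCS), -0.28 ± 0.19 for LRPPRC, 0.14 ± 0.17 for the mitochondrial RNA polymerase POLRMT, 0.09 ± 0.16 for malate dehydrogenase MDH2 and 0.06 ± 0.17 for MRPS34.

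Splicing was the study's second readout. The deposited splicing tables listed 596 events in 85 members for ORF with NC and 557 in 84 for MT with NC. With at least 20 reads on average in both groups, and inclusion over all libraries from 0.05 to 0.95, 111 events in 48 members and 101 in 43 could be tested. No member event was called, at a limma adjusted p below 0.05 and a level difference of at least 0.05, against 0.0129% of 23322 events in ORF with NC and 0.00451% of 22171 events in MT with NC. At an unadjusted p under 0.05 there were 3 and 1 member events (2.70% and 0.990%), against 8.33% and 5.15% of all tested events. By the FDR of the authors' deposited table with the same minimum difference, 7 of 111 and 5 of 101 member events passed, against 11.4% and 8.15% of all tested events. The median absolute difference in inclusion level was 0.018 for members and 0.035 for all events in ORF with NC, and 0.020 and 0.030 in MT with NC.

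Most of the largest level differences in ORF against NC came from overlapping groups or from 1 library. An exon of NDUFAF6, a complex I assembly factor, was included at 0.629, 0.361 and 0.394 in ORF and at 0.401, 0.919 and 0.702 in NC, from 20 to 35 reads per library. Its difference was -0.213, the groups overlap, and limma gave an adjusted p of 0.685, while the FDR in the authors' deposited table was 5.93e-17. The intron-retaining form of ATP5MC1 was at 0.247, 1.000 and 0.431 in ORF and at 0.268, 0.338 and 0.452 in NC, so that only ORF replicate 2 stood apart. In NDUFS7 the longer form of an alternative 3' splice site (chromosome 19, 1388833 to 1391050) was at 1.000 in every ORF library and every library labelled MT, and in NC at 1.000, 0.505 and 1.000. An exon of SDHA (chromosome 5, 224360 to 224521) was likewise low only in NC replicate 3, at 0.590; ORF replicate 1 was at 0.964, NC replicate 1 just below that, and the other 6 libraries were at 1.000. The differences of NDUFS7 and SDHA in both comparisons therefore rest on 1 NC library each. An event of ATP5PO differed by as much as SDHA, 0.141.

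The exon of NDUFB2 at chromosome 7, 140700870 to 140700959, 90 bases long, did separate ORF from NC. It was included at 1.000, 0.905 and 1.000 in ORF and at 0.870, 0.814 and 0.686 in NC, from 27 to 56 reads per library. All ORF libraries lay above all NC libraries, the level difference was 0.179, the log2 odds differed by 3.20 ± 0.99 (SE, n = 3 per group), and the limma adjusted p was 0.515. In the authors' deposited table its FDR was 0.0263. In the libraries labelled MT it was at 0.785, 0.851 and 1.000, overlapping NC. How many of the 111 tested member events, or of all 23322 tested events, separated ORF from NC is not given here. A second event of the same exon, with other neighbouring exons, went the other way: it was included at 0.692, 0.774 and 0.824 in ORF and at 1.000, 0.555 and 1.000 in NC, with overlapping groups and a limma adjusted p of 0.705 (n = 3 per group). In the libraries labelled MT against NC the next differences were -0.143 for an exon of NDUFAF5 (0.247 ± 0.031 against 0.391 ± 0.160, SD, n = 3), -0.139 for the NDUFAF6 exon and -0.132 for an exon of the core complex I subunit NDUFS8 (0.844 ± 0.143 against 0.976 ± 0.041). For NDUFS8 the FDR in the authors' deposited tables was 2.79e-52 here and 2.01e-62 in ORF with NC, the lowest of the tested member events in both. The limma adjusted p of these 3 events in MT with NC were 0.927, 0.938 and 0.935, and their groups overlap. An exon of ATP5MG, named here after its values were seen, was included at 0.238, 0.178 and 0.373 in ORF, 0.095, 0.305 and 0.300 in those labelled MT, and 0.188, 0.151 and 0.056 in NC. The FDR in the authors' deposited tables was 2.05e-25 and 0.00150, and limma gave adjusted p of 0.628 and 0.935.

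Promoter sequence is a feature of the members that the name rule did not use. RefSeq promoters on GRCh38.p14, from 250 bases before to 50 after the start, were found for 78 of 101 members. The core of the NRF1 site, GCGCANGCG on either strand, lay in 25 of 78 (32.1%), against 8.05% of 27305 promoters. The YY1 core AAGATGGCG lay in 10.3% against 1.85%, the ETS core CCGGAAG in 28.2% against 10.7%, and the GC box GGGCGG in 60.3% against 44.6%; on both strands, and sites of different motifs may overlap. The 27305 promoters were not limited to expressed genes or matched to the members for GC content. The motifs were chosen from textbook knowledge, and a match is a description of letters, not of binding. Below is 1 NRF1 match for each complex and for the assembly factors, 5′ to 3′ in the direction of the gene, with the match in capitals. They are shown because NRF1 is a textbook regulator of this pathway.
NDUFS6 (complex I, chr5:1801353-1801377, plus strand): gaagccgtGCGCATGCGttagcgct
SDHD (complex II, chr11:112086755-112086779, plus strand): ctgtgtttGCGCATGCGcgacgggt
UQCRC1 (complex III, chr3:48609676-48609700, minus strand): cggtactgCGCCTGCGCcgcgaccg
COX6A1 (complex IV, chr12:120437886-120437910, plus strand): agggcacaCGCATGCGCacgaagga
ATP5F1C (complex V, chr10:7788147-7788171, plus strand): gagcttcgGCGCATGCGcgctgagg
NDUFAF5 (assembly, chr20:13785016-13785040, plus strand): ccgcgctgGCGCATGCGcacaaaaa
In UQCRC1 and COX6A1 the match is on the strand opposite to the gene. Members with and without an NRF1 core had the same median log2 fold change in ORF against NC, 0.15 over 25 and 0.15 over 52 tested members. In the libraries labelled MT against NC the medians were 0.11 and 0.07, and in ORF against the libraries labelled MT 0.08 and 0.06. Members with a YY1 core had medians of 0.18 and 0.01 over 8 members against NC, where those without had 0.15 and 0.09.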

How the data were processed

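RNA-seq of 9 HCT-116 libraries was analysed; members and gene lists were chosen with earlier results of these data known. Total RNA was made into Illumina libraries, per the labels' protocols. The submitters' processing notes name GRCh38 and hg38. No source used here gives the aligner, the counting tool or the strand setting. The deposited gene tables hold a normalized signal per library, whole read counts scaled by size factors specific to each table, beside the authors' log2 fold changes and the authors' p-values. The deposited splicing tables hold read counts per form, inclusion levels as a fraction, a score that is the difference of the mean levels, the effective length of each form, and the authors' p-values and FDR.

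In each column the smallest value above 0 was taken as 1 read, which gave whole reads (100% of values within 0.1 of a whole number). The 29612 shared genes had identical NC reads in both tables, and 2837 genes listed in 1 table were not used where both were joined. CPM are recovered reads divided by the library total in M reads. The main test was limma 3.58.1 (R 4.3.3; trended eBayes) on log2(value + 1), which understates changes of low genes. Genes needed a value of 1 in 3 libraries, and the fit was within each table; ORF with MT used 1 set of median-of-ratios size factors. Alternatives included edgeR 4.0.16 and DESeq2 1.42.0 on recovered reads. In splicing tables, commas between libraries were lost in 44791 of 95054 and 41463 of 88104 events; splits were restored by matching the deposited levels within 0.001 and, in 19205 and 17058 events with several matches, taking the most even one, and 10 and 2 events were left out. Inclusion was tested as log2 odds (pseudocount 0.5) with limma within each event type. Both tests were checked on simulated data. Coordinates are 1-based. Named members were those with a call, the 3 highest and the lowest level in each complex, the 3 highest and 3 lowest fold changes in each comparison, paralogues, and the 5 largest splicing differences. Limits given for members with few reads concern counting error only. The cell type markers CDX1, PTPRC, CD3E, PRM1, PRM2 and TNP1 were not analysed here.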

Additional observations from a re-analysis of the deposited data

How the results depend on the processing

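No member passed the main limma tests, and none did with edgeR, DESeq2, quantile normalization, pseudocounts of 0.5 and 5, other filters on low values, or limma over 9 libraries. In ORF against NC, 4 of 99 members were called after adjustment for GC content and gene length, against 7.19% of all genes. With that adjustment and a replicate block 12 of 99 members were called, against 2498 of 24662 genes. With 1 library left out 0 to 3 members were called. ORF replicate 2 was the library whose removal gave 3 (NDUFB9, NDUFB2 and COX6B2). In MT against NC, 1 member (NDUFS7) was called with the replicate block, with or without that adjustment. In ORF against MT, 1 of 98 members (COX6B2) was called with the adjustment, also with the block. COX6B2 was also called with ORF replicate 1 and MT replicate 2 both left out, an alternative chosen after seeing the data. In the same fits 1429, 911 and 1577 genes were called. Whether the labels' replicate numbers pair the libraries is not known. Same-numbered deviations correlated at -0.17 to 0.0977. In MT against NC the block raised genes at a limma unadjusted p under 0.05 from 1183 to 3372, and members from 1 to 19. That count of genes went from 3867 to 3813 in ORF against NC and from 3195 to 2145 in ORF against MT. Without the adjustment the block left the count of members called at 0 in both. Members' medians with 1 library left out ran from 0.05 to 0.22 in ORF against NC, from -0.0 to 0.12 in MT against NC and from -0.04 to 0.15 in ORF against MT.

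Counts over all genes moved more. In ORF against NC 103 genes became 558 with DESeq2, 210 with quantile normalization, 225 over 9 libraries, 301 with the replicate block, 1774 with the GC and length adjustment, 2498 with both, and 24 to 1494 with 1 library left out. The split of 93 higher and 10 lower became 388 and 170 with DESeq2, 170 and 40 with quantile normalization and 1172 and 602 with the adjustment. In MT against NC 0 became 1 with DESeq2, 35 with the block and 61 with block and adjustment, and 0 with 1 library left out. In ORF against MT 89 became 453 with DESeq2, 134 with quantile normalization, 10 with no filter, 458 over 9 libraries, 46 with the block, 1429 with the adjustment, 911 with both, 1577 without the pair of libraries, and 12 to 552 with 1 library left out. Splicing calls in members stayed at 0 under all alternatives run. In the other gene lists, 0 calls became up to 3 of 13 for mitochondrially encoded subunits. Of these, 3 were lower with quantile normalization and 2 higher with block and adjustment in ORF against NC. In MT against NC 3 were higher with block and adjustment and 1 higher with the block. In ORF against MT 1 was lower with quantile normalization. Outside assembly factors reached 7 of 45 (3 with the adjustment, 4 without the pair). Mitochondrial ribosomal proteins reached 17 of 78 (1 with DESeq2, 3 with the adjustment, 4 without the pair). Both maxima came from ORF against NC with block and adjustment, where 2498 of 24662 genes were called. Citric acid cycle genes reached 2 of 19 and regulators 1 of 14, also in that fit. Electron carriers reached 1 of 7 in ORF against MT without the pair, where 1577 of 22508 genes were called. With 1 library left out 0 to 4 genes of a list were called. Members with few reads, such as COX8C and COX4I2, are limited by depth. The cause of these changes was not tested.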
